A study of Bos taurus with 25 samples.

Results

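RAB15, ADGRF1 (also written GPR110) and IRX6, 3 of the 11068 genes whose symbols could be paired with the array, were chosen by the rise of their log2 levels in the mammary gland of dairy cows injected with vitamin B12, against control cows. All probes that map to these genes were kept, 8 of the 43653 probes that are not controls, with 4 for RAB15, 2 for ADGRF1 and 2 for IRX6. Biopsies of the mammary gland and of the liver of lactating Holstein cows were hybridized to 1-colour Agilent bovine arrays, 1 array for each tissue of a cow, 64 ± 3 days after calving. All cows received weekly intramuscular injections of 5 mL. Control cows received saline (3 gland and 3 liver arrays), B9 cows received 320 mg of folic acid (3 and 3), B12 cows received 10 mg of cyanocobalamin (4 and 4), and B9+B12 cows received both (3 and 2). The labels do not give the age of a cow, and 12 of the 13 cows gave both tissues. Values are log2 intensities after background correction and quantile normalization within a tissue, so that a difference of 1 is a 2-fold change.

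RAB15 is a small GTPase of the Rab family, a group of molecular switches that direct membrane vesicles between compartments. It is known for its place on early and recycling endosomes, from which internalized receptors return to the cell surface. ADGRF1 is an adhesion G protein-coupled receptor, which raises cyclic AMP through the stimulatory G protein and is known as a receptor of synaptamide, an ethanolamide of docosahexaenoic acid. IRX6 is a homeobox transcription factor of the Iroquois family and lies in a cluster with IRX3 and IRX5. Vitamin B12 is the cofactor of methionine synthase, which takes its methyl group from a folate, and of methylmalonyl-CoA mutase, through which propionate enters the citric acid cycle.

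The oligonucleotides that the study designed for quantitative PCR of these genes are shown because they are the designed sequences at hand that define which transcript is meant. The RAB15 and ADGRF1 primers were designed on the same reference transcript that names the array probes. They are 22 or 23 bases long and are given 5′ to 3′ in lower case, with no base marked. No PCR value is used here.
RAB15 forward: ctgggattttagggtgcagcta
RAB15 reverse: cacgcctgctcaacagtctaag
ADGRF1 forward: tacgggtgccctctcattatatc
ADGRF1 reverse: atcggaccagttaagccaacat

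The probes of a gene differed in brightness, and each gene is described first by its brightest gland probe. For RAB15 this was A_73_103474 with a mean of 10.57 over the 13 gland arrays. A second RAB15 probe, A_73_P110141, had a mean of 10.38. The other RAB15 probes, A_73_112972 and A_73_P504030, had means of 6.28 and 6.22 and were well above background on 11 and 10 of the 13 gland arrays. ADGRF1 was measured by A_73_115036 at 9.13 and by A_73_P432106 at 6.64, both well above background on 13 of 13 gland arrays. IRX6 was measured by A_73_106379 at 7.67, well above background on all 13, and by A_73_P066986 at 6.18, well above background on 7. No spot of these probes was saturated or called an outlier. The gland arrays correlated at 0.985 to 0.991 with the others of their tissue on average, while the liver arrays of B9 cow 57 and B9+B12 cow 32 stood lowest in theirs, at 0.973 and 0.974.

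RAB15 levels in the gland ranged from 8.32 to 11.72 between cows. In control cows 42, 43 and 51 its levels were 10.37, 8.32 and 9.70. In B12 cows 36, 37, 40 and 52 they were 11.19, 11.53, 11.50 and 11.55, a range narrower than that of any other group. In B9 cows 39, 41 and 57 they were 11.72, 9.93 and 8.91, and in B9+B12 cows 31, 32 and 38 they were 10.21, 11.08 and 11.41. The 4 B12 cows lay above all 3 control cows, but the highest level of the gland belonged to B9 cow 39. The group means were 9.46 ± 1.05 (SD, n = 3) in control, 10.18 ± 1.42 (SD, n = 3) in B9, 11.44 ± 0.17 (SD, n = 4) in B12 and 10.90 ± 0.62 (SD, n = 3) in B9+B12 cows. In this order of levels, control, B9, B9+B12 and B12, each group overlapped with the next.

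ADGRF1 levels ranged from 8.10 to 9.86. Those in control cows 42, 43 and 51 were 8.10, 8.96 and 8.55, and in B12 cows 36, 37, 40 and 52 they were 9.86, 9.85, 9.45 and 9.85. Cows 39, 41 and 57 of the B9 group had 9.69, 8.55 and 9.28, and cows 31, 32 and 38 of the B9+B12 group had 9.08, 8.33 and 9.09. All B12 cows lay above all control cows and above all B9+B12 cows, while B9 cow 39 lay among them. The means were 8.54 ± 0.43 (SD, n = 3) in control, 8.83 ± 0.44 (SD, n = 3) in B9+B12, 9.17 ± 0.58 (SD, n = 3) in B9 and 9.75 ± 0.20 (SD, n = 4) in B12 cows. Control, B9+B12 and B9 cows overlapped in this order, and so did B9 and B12 cows.

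IRX6 levels ranged from 6.60 to 9.05. They were 6.60, 6.84 and 7.72 in control cows 42, 43 and 51, and 7.69, 8.48, 9.05 and 8.64 in B12 cows 36, 37, 40 and 52. In the other groups they were 8.52, 6.93 and 7.39 in B9 cows 39, 41 and 57, and 6.71, 7.68 and 7.41 in B9+B12 cows 31, 32 and 38. B12 cow 36 lay just under control cow 51, so that 3 of the 4 B12 cows were above all control cows. The means were 7.05 ± 0.59 (SD, n = 3) in control, 7.27 ± 0.50 (SD, n = 3) in B9+B12, 7.61 ± 0.82 (SD, n = 3) in B9 and 8.47 ± 0.57 (SD, n = 4) in B12 cows, and neighbours in this order overlapped. For each of the 3 genes, 3 of the 4 highest gland arrays were B12 arrays and the other was cow 39 of the B9 group, which ranked 1 for RAB15, 4 for ADGRF1 and 3 for IRX6.

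**Figure D1:**
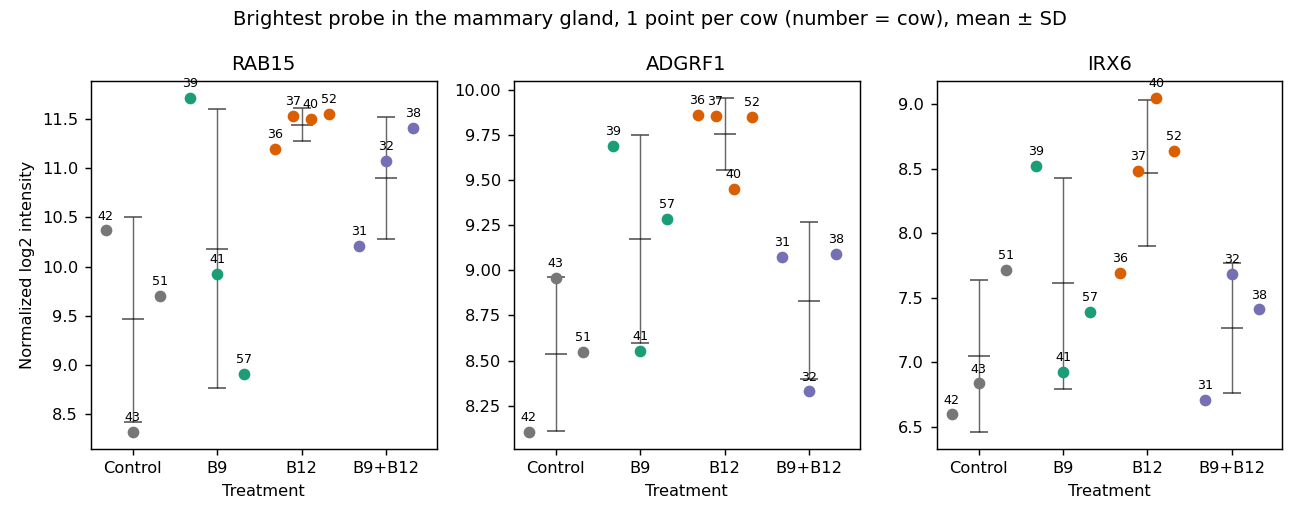
Normalized log2 intensity (vertical axis) of the brightest probe of RAB15, ADGRF1 and IRX6 in the mammary gland, by treatment (horizontal axis). Each point is the array of a cow, named by its number, and the bars give the mean and SD of the group. B12 cows lie above all control cows for RAB15 and ADGRF1, cow 39 of the B9 group is high in every panel, and the vertical scales differ between panels.

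The difference between B12 and control cows in the gland chose these genes and is given as a description, with no test. It was 1.98 (SE 0.62) for RAB15, 1.41 (SE 0.44) for IRX6 and 1.22 (SE 0.29) for ADGRF1 on the log2 scale, that is 3.94-fold, 2.67-fold and 2.33-fold. The size depended on the processing. IRX6 differed by 1.95 with a normexp offset of 0, 2.09 with the processed signal of the image software and 1.72 in the authors' processed table. With all probes of a gene averaged, the differences were 1.08, 0.84 and 0.72 in the same order of genes. Among all probes ordered by this rise they ranked 4, 10 and 15, and the second bright probe of RAB15 ranked 5 with a difference of 1.89. The dim probes of the genes, with gland means from 6.18 to 6.64 after the added offset, differed by less. Their differences were 0.21 and 0.24 for RAB15, 0.22 for ADGRF1 and 0.27 for IRX6. How far the offset narrows them was not tested. In this comparison limma called 0% of all probes, 2.28% had an unadjusted p below 0.05 and Cyber-T, the test named in the study's methods, called 0.0229%, where a call needs an adjusted p up to 0.05 and a change of 2-fold. Over all probes 0.0733% were higher by 2-fold or more, and in 2.27% the B12 arrays all lay above the control arrays, as they did in 6 of the 8 member probes.

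Arrays share slides, which hold both groups in only a few cases. On slide 5, B12 cow 52 exceeded control cow 43 by 3.23 for RAB15, 0.89 for ADGRF1 and 1.80 for IRX6. On slide 6, B12 cow 40 exceeded control cow 51 by 1.79, 0.91 and 1.33. These pairs are among the arrays that chose the genes, so that their direction is no separate evidence.

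The gland biopsies carried their labelled tissue: 11 of 11 measured markers of milk-secreting cells were higher in the gland and 9 of 9 hepatocyte markers were higher in the liver. Of 9 lists of cell type markers, the summed level of the endothelial list was the 1 that did not overlap between B12 and control cows, from 12.12 to 12.43 against 11.74 to 12.09. With 4 against 3 cows and 9 lists looked at, nothing is read from 1 list that stood apart. All 6 of the 6 endothelial markers measured, of 7 listed, were higher on average in B12 cows, with a median of 0.16, and CLDN5, a tight junction protein of vessels, had the largest difference at 0.51 (SE 0.21). None of the endothelial markers was at background on a gland array. The list of luminal epithelial markers went the other way in 7 of its 8 measured genes, from 13.74 to 13.87 in B12 against 13.86 to 14.17 in control cows, and KRT18, a keratin of simple epithelia, had the largest difference at −0.42 (SE 0.60). Over the 13 gland arrays, which share their treatment groups, r of the luminal epithelial sum was −0.666 with RAB15, −0.216 with ADGRF1 and −0.448 with IRX6, and r of the endothelial sum was −0.023, 0.483 and 0.062. The other 7 lists had medians from −0.25 (leukocyte) to 0.19 (basal myoepithelial, 8 of 10 markers higher) between B12 and control cows, with overlapping sums. Their r ran from −0.453 (luminal secretory) to 0.441 (macrophage) with RAB15, from −0.282 to 0.265 with ADGRF1 and from −0.317 to 0.315 with IRX6. The part of these cell types in the levels of the 3 genes was not tested. In a biopsy, fewer cells of a type and less RNA per cell cannot be told apart.

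The genes that flank the members on the chromosome were looked up in the reference gene order (ARS-UCD2.0), 3 on each side with a probe and a symbol. Their differences between B12 and control cows ran from −0.14 to 0.56 over 18 genes. The members were chosen by this difference and the flanking genes were not, so that nothing is read from the gap between them. Around RAB15 these were ZBTB1 (0.04), HSPA2 (0.13) and CHURC1 (0.17) on one side and FNTB (−0.05), MAX (0.08) and FUT8 (−0.05) on the other. IRX6 shares its cluster with IRX5 and IRX3, which differed by −0.09 (SE 0.20) and −0.0028 (SE 0.20), while FTO, MMP2 and CES1 differed by 0.05, 0.15 and 0.37, and SLC6A2 was well above background on 0 of 13 gland arrays. Next to ADGRF1, the receptor ADGRF5 differed by 0.09 (SE 0.20), and ADGRF2 and ADGRF4, of the same subfamily, were well above background on 0 and 1 of 13 gland arrays. PLA2G7 differed by 0.07, and TDRD6, well above background on 4 of 13 gland arrays, by −0.14. TNFRSF21, a death receptor of the tumor necrosis factor family, differed by 0.56 (SE 0.14), and by 0.53 (SE 0.15) in B9 and 0.49 (SE 0.15) in B9+B12 cows against the same control cows, with adjusted p = 1 in limma for each.

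**Figure D2:**
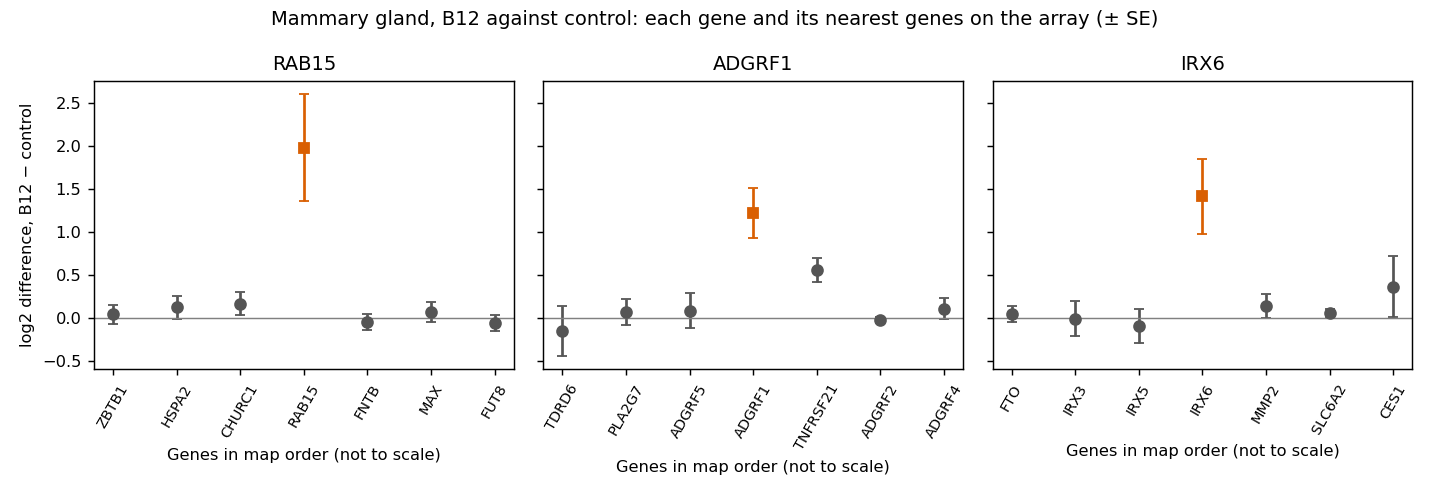
Log2 difference between B12 and control cows in the mammary gland (vertical axis, ± SE) for RAB15, ADGRF1 and IRX6 (squares) and for the 3 nearest genes on each side that have a probe (circles), in map order and not to scale. The neighbours lie between −0.14 and 0.56, and the members at 1.98, 1.22 and 1.41.

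The gland arrays of B9+B12 and B9 cows were not used in choosing the genes and address the effect of B12 in cows that also received B9. RAB15 was 0.72 higher in B9+B12 than in B9 cows (SE 0.66, 95% interval −0.74 to 2.18), and its second bright probe 0.82 higher. ADGRF1 differed by −0.34 (SE 0.31, 95% interval −1.02 to 0.34) and IRX6 by −0.34 (SE 0.47, 95% interval −1.37 to 0.68). These SEs and intervals use a spread that all 13 gland arrays share, among them the arrays that chose the genes. For RAB15 the SD was 0.62 in B9+B12 and 1.42 in B9 cows. The arrays of the groups overlapped for 8 of 8 member probes, with 4 probes higher and 4 lower (49.1% of all probes were higher), while 6.36% of all probes had arrays that did not overlap. None of the 8 passed limma (adjusted p = 1 for each), and exact permutation tests gave p = 0.6 for RAB15, 0.4 for ADGRF1 and 0.7 for IRX6, where 3 cows against 3 cannot go below 0.1. Over all probes limma called 0 (0%), 1016 had an unadjusted p below 0.05 (2.33%), and Cyber-T called 3 (0.00687%). Whether this effect differed from that between B12 and control cows was not tested, since the latter chose the genes.

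Cow 39 weighed on this comparison. Without it, RAB15 was 1.48 higher in B9+B12 than in B9 cows, and the difference was −0.09 for ADGRF1 and 0.11 for IRX6. Without B9 cow 57 the RAB15 difference was 0.08, and without B9 cow 41 those of ADGRF1 and IRX6 were −0.65 and −0.69. Cows of the B9+B12 group weighed too. The ADGRF1 difference shrank without cow 32, about as much as without cow 39, and the IRX6 difference shrank without cow 31. Beside these values, 1 of 9 hepatocyte markers (median −0.25) and 7 of 10 leukocyte markers (median 0.21) were higher in B9+B12 than in B9 cows. So were 5 of 6 endothelial markers (median 0.14). The sums of these lists overlapped, and their part in the levels was not tested. On slide 6, the 1 slide with both groups, B9+B12 cow 38 lay below cow 39 by 0.30 for RAB15, 0.60 for ADGRF1 and 1.11 for IRX6, values that rest on a pair of arrays.

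B9 alone and B9+B12 were compared with the control arrays that also entered the choice of the genes, so that these values share the controls with the B12 difference. In B9 cows RAB15 was 0.72 higher than in control cows (SE 0.66, 95% interval −0.74 to 2.18), ADGRF1 0.64 (SE 0.31, −0.04 to 1.32) and IRX6 0.56 (SE 0.47, −0.47 to 1.59). All 8 probes were higher on average, as were 51.1% of all probes, and the arrays overlapped for each, while 7% of all probes had arrays that did not. The shares over all probes are no measure of chance here, since the control arrays entered the choice and the 8 probes measure 3 genes. In the same B9 cows 0 of 10 leukocyte markers were higher than in control cows (median −0.31), with sums from 11.50 to 12.03 against 11.92 to 12.54. Of the hepatocyte markers 8 of 9 were higher (median 0.39), with sums from 12.72 to 13.51 against 12.55 to 13.13. Both sums overlapped, and the part of these cell types in the levels of the 3 genes was not tested. In B9+B12 cows RAB15 was 1.44 higher (SE 0.66, 95% interval −0.02 to 2.90), ADGRF1 0.30 (SE 0.31, −0.39 to 0.98) and IRX6 0.22 (SE 0.47, −0.81 to 1.25). The arrays did not overlap for 1 of the 8 probes, the dim RAB15 probe A_73_112972, with a difference of 0.20, against 3.43% of all probes in the same direction. No member passed limma in either comparison (adjusted p = 1 for each), which called 0% of all probes, with an unadjusted p below 0.05 for 1112 (2.55%) and 852 (1.95%) probes, while Cyber-T called 5 (0.0115%) and 6 (0.0137%). Of the 8 member probes 0 had an unadjusted p below 0.05 in B9 cows and 1 in B9+B12 cows, the dim probe A_73_112972. Without cow 39 the RAB15 difference between B9 and control cows was −0.05, and the ADGRF1 and IRX6 differences were 0.38 and 0.11. Without B9 cow 57 that of RAB15 was 1.36, and without B9 cow 41 that of IRX6 was 0.90. For B9+B12 against control, RAB15 differed by 0.87 without control cow 43, and without control cow 42 ADGRF1 differed by 0.08 and IRX6 by −0.010. ADGRF1 differed by 0.55 without B9+B12 cow 32, and IRX6 by 0.55 without control cow 51. Of the markers, 2 of 10 of the leukocyte list (median −0.23) and 9 of 10 of the basal myoepithelial list (median 0.18) were higher in B9+B12 than in control cows. Of the endothelial list 4 of 6 were higher (median 0.21), and 2 of 6 in B9 against control cows (median −0.01). The sums of these lists overlapped, and their part in the levels was not tested.

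**Figure D3:**
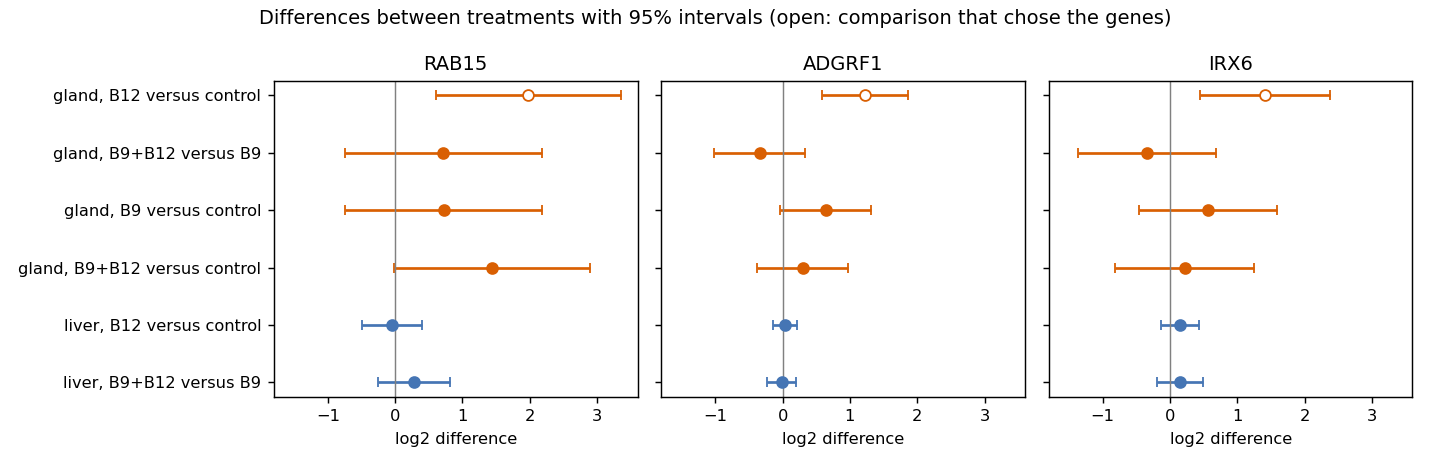
Log2 differences between treatments (horizontal axis) for the brightest probe of each gene, with 95% intervals from limma, in the gland (orange) and the liver (blue). The open symbol is the comparison that chose the genes, where all intervals lie above 0 by choice, and in the other gland comparisons and in the liver the intervals include 0.

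In the liver of the same cows RAB15 was 6.81, 6.51 and 6.82 in control cows 42, 43 and 51, and 6.64, 6.86, 6.71 and 6.46 in B12 cows 36, 37, 40 and 52. Cows 39, 41 and 57 of the B9 group had 7.42, 6.57 and 6.87, and cows 32 and 38 of the B9+B12 group 7.48 and 6.996. B12 cows overlapped with control cows and B9+B12 cows with B9 cows, while both B9+B12 cows lay above all control and all B12 cows. By their brightest gland probes, IRX6 lay between 6.43 and 7.05 over the 12 liver arrays and ADGRF1 between 5.97 and 6.29, well above background on 4 of 12 arrays. The other ADGRF1 probe, A_73_P432106, lay between 6.15 and 7.40 in the liver and was well above background on 12 of 12 arrays.

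B12 against control in the liver gave differences of −0.05 for RAB15 (SE 0.20, 95% interval −0.49 to 0.40), 0.04 for ADGRF1 (SE 0.08, −0.14 to 0.21) and 0.15 for IRX6 (SE 0.13, −0.13 to 0.43). B9+B12 against B9 gave 0.29 (SE 0.24, −0.25 to 0.82), −0.01 (SE 0.09, −0.22 to 0.20) and 0.15 (SE 0.15, −0.19 to 0.49). Without liver array 32 the last 3 values were 0.04, 0.02 and 0.30, and without liver array 57 they were 0.24, −0.07 and 0.24. Cell type markers moved in the same arrays, and their part in these levels was not tested. With B12, 9 of 11 markers of milk-secreting cells were higher than in control livers (median 1.03), with sums from 15.48 to 16.20 against 15.83 to 16.12, and 0 of 6 endothelial markers were (median −0.20), with sums from 12.77 to 13.07 against 12.99 to 13.32. On top of B9, 6 of 6 endothelial and 6 of 7 fibroblast markers were higher (medians 0.21 and 0.47). In both B9+B12 livers the endothelial sum (13.33 and 13.73) and the adipocyte sum (15.18 and 15.20) lay above those of all B9, control and B12 livers, and the fibroblast sum (13.50 and 13.71) above all B9 livers. None of the 8 probes passed limma in either comparison, with adjusted p between 0.998 and 1, and exact permutation p-values were 0.257 or more. In the first comparison limma called 1 of all probes (0.00229%), Cyber-T 43 (0.0985%), and 926 had an unadjusted p below 0.05 (2.12%). In the second, limma called 0 probes (0%), Cyber-T 8 (0.0183%), and 2113 had an unadjusted p below 0.05 (4.84%). The brightest gland probe of ADGRF1 was at background on most liver arrays, so that a lower level was not detectable with it, and A_73_P432106 differed by −0.20 (SE 0.22) with B12 and by −0.12 (SE 0.27) with B12 on top of B9. The difference between the tissues in the effect of B12 on top of B9 was taken from the 24 arrays normalized together, which leave out gland cow 31 and so hold 2 B9+B12 cows, and it is not the difference of the values above. It did not pass the test, at 0.93 (SE 0.87) for RAB15, −0.50 (SE 0.41) for ADGRF1 and −0.17 (SE 0.63) for IRX6, as gland minus liver, with an adjusted p of 1 in limma for each.

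The brightest probes of the 3 genes were higher in the gland than in the liver in every cow. With the 24 arrays of the 12 cows normalized together, RAB15 was 11.41 ± 1.26 (SD, n = 12) in the gland and 6.63 ± 0.26 (SD, n = 12) in the liver, a difference of 4.78 (SE 0.32). ADGRF1 was 9.80 ± 0.69 (SD, n = 12) and 6.06 ± 0.07 (SD, n = 12), a difference of 3.73 (SE 0.17), with 12 of 12 gland and 4 of 12 liver arrays well above background, so that its size is limited by the background of the liver arrays. IRX6 was 8.24 ± 0.90 (SD, n = 12) and 6.52 ± 0.15 (SD, n = 12), a difference of 1.72 (SE 0.23). The gland was higher in 12 of 12 cows for each, by 2.55 to 6.13 for RAB15, 2.60 to 4.57 for ADGRF1 and 0.31 to 3.09 for IRX6, and no gland array overlapped with a liver array for these probes. The size of these differences depended on the processing, from 2.52 to 6.46 for RAB15, 2.07 to 8.08 for ADGRF1 and 1.02 to 3.34 for IRX6, lowest with all probes of a gene averaged and highest with the processed signal. The dim probe of ADGRF1 was higher in the gland in 10 of 12 cows and that of IRX6 in 11 of 12.

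Limma was fitted with tissue and treatment and without a block for the cow, so that it ignored the pairing. It gave adjusted p = 1.06e-11 for RAB15, 7.62e-15 for ADGRF1 and 6.78e-07 for IRX6. With the cow as a block the adjusted p-values were larger and are given in the closing section. The exact permutation test over cows, which keeps the pairs, gave 0.000488 for each, the smallest p that 12 pairs allow. Of the 8 member probes 4 passed at 2-fold or more, the 3 brightest and the second RAB15 probe, which differed by 4.54. The dim probes differed by 0.32 to 0.41, with adjusted p between 7.36e-07 and 0.000546. The RAB15 probe A_73_P504030 was well above background on 0 of 12 liver arrays, so that it was at least 1.32-fold higher in the gland, and the dim IRX6 probe was well above background on 1 of 12. Over all probes 18.9% were called, and 15.1% had gland arrays that all lay above the liver arrays, as 5 of the 8 member probes did. A gene at background in the gland could hardly have been picked for a rise there, so that the gland level is not independent of the choice of the genes.

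**Figure D4:**
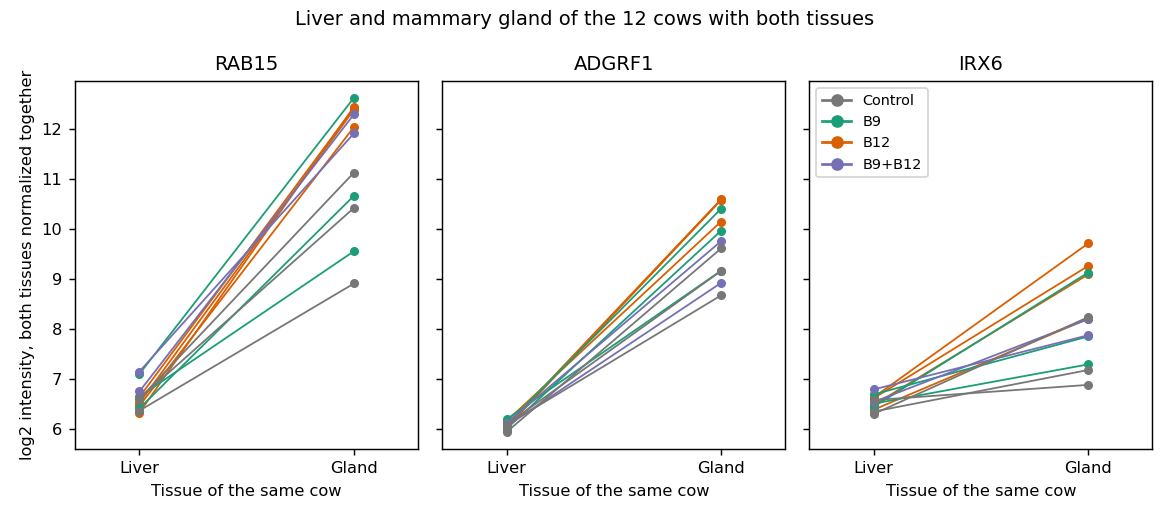
Log2 intensity (vertical axis) of the brightest probe in both tissues of each of the 12 cows, liver left and mammary gland right, with both tissues normalized together. A line joins the tissues of a cow, and colours give the treatment. Every line rises, and the spread between cows is wide in the gland and narrow in the liver.

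Among the flanking genes, 6 of 18 passed between the tissues, where 18.9% of all probes did. IRX3 and IRX5 were higher in the gland by 6.89 (SE 0.12) and 5.10 (SE 0.08), MMP2, a matrix metalloproteinase, by 1.58 (SE 0.09), and TNFRSF21 by 3.73 (SE 0.10). CES1, a carboxylesterase, fell by 7.19 (SE 0.17) from liver to gland, and PLA2G7, a phospholipase of lipoproteins, fell by 3.14 (SE 0.16). All flanking genes of RAB15 were within 0.50.

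Lists of genes that work with the members were looked at in the same fits, with 73 genes on the array in 4 lists that leave out the members themselves. No gene of these lists passed in any treatment comparison of either tissue. Of the Rab GTPases and proteins of endosomal recycling, 31 of 40 were on the array, and their median difference between B12 and control cows in the gland was 0.01, against 0.0022 over all probes. RAB31, of the trans-Golgi network, had the highest value at 0.36 (SE 0.27), and RAB18, of lipid droplets, the lowest at −0.31 (SE 0.16). On top of B9 the list ran from RABIF at −0.29 (SE 0.16) to RAB11FIP2 at 0.23 (SE 0.15), with a median of −0.01. Against control it ran from RAB35 at −0.19 to RAB31 at 0.40 in B9 cows, and from RAB35 at −0.32 to RAB13 at 0.15 in B9+B12 cows. In the liver RAB20 and RAB26 were the extremes, at 0.47 and −0.53 with B12 and at −0.53 and 0.56 with B12 on top of B9. Between the tissues 7 of the 31 rose and 2 fell in the gland (18.9% of all probes were called in either direction), with RAB25, a Rab of epithelial recycling endosomes, at 4.99 (SE 0.10) and EHD1, an endosomal ATPase, at −1.54 (SE 0.07).

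Of the other adhesion receptors 12 of 31 were on the array. Between B12 and control cows in the gland they had a median of 0.02, from ADGRG1 at −0.09 (SE 0.24) to CELSR2 at 0.27 (SE 0.38). On top of B9 the median was −0.03, from ADGRL3 at −0.17 (SE 0.41) to ADGRL4 at 0.25 (SE 0.38). Against control the extremes were ADGRF5 at −0.15 and CELSR2 at 0.29 in B9 cows, and ADGRL3 at −0.16 and ADGRL4 at 0.41 in B9+B12 cows. In the liver they were ADGRE5 at −0.25 and ADGRL1 at 0.06 with B12, and ADGRL3 at −0.08 and ADGRG1 at 0.70 on top of B9. Between the tissues 2 of 12 rose and 1 fell, beside 18.9% of all probes in either direction, with ADGRL3, a latrophilin, at 2.11 (SE 0.17) and ADGRE5, a receptor of leukocytes known as CD97, at −2.04 (SE 0.07).

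Genes of synaptamide turnover and of cyclic AMP signalling, 17 of 21 on the array, had a median of 0.04 between B12 and control cows in the gland. GNAQ, a G protein subunit, was highest at 0.24 (SE 0.07) and FAAH, the amidase that degrades such ethanolamides, lowest at −0.06 (SE 0.11). On top of B9 the median was −0.02, and the adenylyl cyclases ADCY4 and ADCY5 were the extremes at 0.12 (SE 0.20) and −0.22 (SE 0.17). Against control ADCY5 and ADCY4 were at 0.22 and −0.09 in B9 cows, and PRKAR1A and ADCY8 at 0.23 and −0.09 in B9+B12 cows. In the liver ADCY6 and ADCY4 were at 0.12 and −0.31 with B12, and ADCY5 and CREM at 0.65 and −0.36 on top of B9. Between the tissues 4 of 17 rose and 1 fell, beside the same 18.9%, with the cyclase ADCY6 at 2.62 (SE 0.08) and FAAH at −5.10 (SE 0.09).

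Of the homeobox genes of the Iroquois and related families 13 of 17 were on the array, with a median of −0.0028 between B12 and control cows in the gland. IRX4 was highest at 0.12 (SE 0.31) and IRX5 lowest at −0.09 (SE 0.20). On top of B9 the median was −0.00014, from IRX4 at −0.52 (SE 0.33) to MKX at 0.58 (SE 0.99). Against control MKX and IRX4 were at −0.60 and 0.60 in B9 cows, and MEIS1 and IRX3 at −0.13 and 0.25 in B9+B12 cows. In the liver IRX3 and MKX were at −0.23 and 0.11 with B12, and MKX and MEIS1 at −0.34 and 0.30 on top of B9. Between the tissues 4 of 13 rose and none passed as a fall, beside 18.9% of all probes, with IRX3 at 6.89 (SE 0.12) and MEIS2 at −0.65 (SE 0.06).

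The brightest probes of the members were compared with each other. Over the 13 gland arrays, which share their treatment groups, r was 0.447 between RAB15 and ADGRF1, 0.672 between RAB15 and IRX6 and 0.665 between ADGRF1 and IRX6. After the group means were taken out, r was −0.066, 0.525 and 0.186. Between probes of the same gene, r was 0.974 for the bright RAB15 probes, 0.895 and 0.898 between the brightest and the dim RAB15 probes, 0.774 for ADGRF1 and 0.927 for IRX6, while the dim ADGRF1 probe had r of 0.79 with the brightest IRX6 probe.

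The genes most like each member were sought over the 13 gland arrays among 8475 genes well above background on all of them. For RAB15 these were MEGF10, an engulfment receptor, with r of 0.86, PAPSS1, which makes the sulfate donor, with 0.80, and ERG28, a protein of sterol synthesis, with 0.79. MEGF10 differed by 1.41 between B12 and control cows and by 0.54 between B9+B12 and B9 cows, PAPSS1 by 0.64 and −0.20, and ERG28 by 0.17 and 0.12. For ADGRF1 they were COLGALT1, a collagen galactosyltransferase, with 0.88, RANGAP1, which acts in nuclear transport, with 0.85, and CALU, a calcium-binding protein of the secretory pathway, with 0.84. For IRX6 they were ENO2, an enolase, with 0.87, RAB6A, a Golgi Rab, with 0.85, and the kinase STK16 with 0.81. The likeness is over arrays that include those that chose the members.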

How the data were processed

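For each of the 25 1-colour arrays the authors deposited scanner output with spot and background median intensity and a processed intensity (Feature Extraction 10.7.3.1 per the file headers), without normalization across arrays. They also deposited log2 values that they had processed. Here the median intensity was corrected by normexp (offset 50) and normalized by quantiles within each tissue. The 24 arrays of the 12 cows with both tissues were normalized together for the comparison of tissues. Outlier spots were dropped, and spots of a probe averaged over 43653 probes. The authors' table, named in the rule that chose the genes, lay, by the median, within 0.00095 (gland) and 0.0018 (liver) of normexp at offset 16 with quantiles, and served as an alternative.

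Symbols came from the reference gene table (ARS-UCD2.0), which paired 53.9% of the probes. No position is given, since the builds differ. Limma 3.58.1 in R 4.3.3 fitted group means to all arrays of a tissue. Between the tissues it fitted tissue and treatment, without a block for the cow. The p-values were adjusted over every probe by Benjamini-Hochberg. Calls required an adjusted p up to 0.05 together with a 2-fold change. Exact permutation tests were two-sided. Cyber-T (window 101, confidence 10) is the methods' test. Tests were tested on simulated data. Each array is 1 cow, and the number of arrays limits the precision. Signal over background was 2.92 to 5.06 in the gland and 2.3 to 10.5 in the liver.

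The members, lists and alternatives were chosen with earlier results of these data known. The genes named are the members, 3 neighbours on each side, the extremes of each list and the 3 most like genes. The lists of cell type markers were luminal_secretory, luminal_epithelial, basal_myoepithelial, adipocyte, fibroblast, endothelial, macrophage, leukocyte and hepatocyte. Both tissues of a cow pair by design. Their deviations from the group means correlated at −0.245 to 0.262, above 0.1 in 4 of 12 cows.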

Additional observations from a re-analysis of the deposited data

Results flagged for a closer look

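In the 4 gland arrays of B12 cows, the lowest value stood apart from the other arrays for RAB15 and ADGRF1. For RAB15 this was cow 36 at 11.19 against 11.50 to 11.55, with a gap of 0.851 of the whole range. For ADGRF1 it was cow 40 at 9.45 against 9.85 to 9.86, with a gap of 0.973. Both exceed Dixon's 95% critical value for 4 arrays, 16 such groups were looked at, and chance gives about 1 in 20. The groups are not independent, since they hold probes of the same 3 genes. The B12 gland arrays also chose the genes, so that nothing is read from these ratios. On the other ADGRF1 probe, A_73_P432106, cow 40 was the highest of the B12 cows, at 6.81. The arrays that stood apart belong to different cows, and both lie above all control arrays.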

How the results depend on the processing

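Over 21 differences, 501 values were recomputed under the alternatives. For the differences that were tested no call changed, while the gland difference between B12 and control cows, which chose the genes, carries no call. Of all values 482 kept their direction and their side of the threshold, or lay within the spread between cows, 15 changed sign and 4 moved by more than the spread between cows. With the probes of each gene averaged, the gland differences between B12 and control cows were 1.08 for RAB15, 0.72 for ADGRF1 and 0.84 for IRX6, as the dim probes enter, and with the processed signal of the image software that of IRX6 was 2.09. Leaving out 1 cow gave 1.41 (without control cow 43) to 2.43 (without control cow 42) for RAB15, 1.00 to 1.43 for ADGRF1 and 1.19 to 1.75 for IRX6. For B9+B12 against B9 in the gland these ranges were 0.08 to 1.48 for RAB15, −0.65 to −0.09 for ADGRF1 and −0.69 to 0.11 for IRX6. Against control they were −0.046 to 1.36, 0.38 to 0.95 and 0.11 to 0.90 with B9, and 0.87 to 1.89, 0.08 to 0.55 and −0.010 to 0.55 with B9+B12. With all cows kept, the other alternatives gave these ranges in the same order of genes. They were 0.22 to 0.85, −0.39 to −0.08 and −0.64 to −0.07 for B9+B12 against B9. Against control they were 0.36 to 1.22, 0.40 to 0.72 and 0.19 to 0.87 with B9. With B9+B12 they were 0.79 to 1.57, 0.13 to 0.34 and 0.05 to 0.41. The signs that turned without a cow in the gland were those of IRX6 without B9 cow 39 (0.11) or control cow 42 (−0.010) and of RAB15 without B9 cow 39 (−0.046).

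In the liver, leaving out 1 cow gave −0.15 to 0.020 for RAB15, −0.020 to 0.070 for ADGRF1 and 0.08 to 0.26 for IRX6 with B12, and 0.04 to 0.53, −0.072 to 0.049 and −0.0066 to 0.30 with B12 on top of B9. With a fixed effect of the slide, the liver difference with B12 was 0.028 for RAB15, and on top of B9 that of ADGRF1 was 0.16. The ADGRF1 difference with B12 was −0.068 with scaling by the 75th percentile and −0.082 with the mean of its probes, and on top of B9 it was 0.22 with that scaling and 0.10 with the processed signal. The cause was not tested.

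By the brightest probe of each gene, or the mean of its probes, the gland stayed above the liver in every alternative. The difference ran from 2.52 to 6.46 for RAB15, 2.07 to 8.08 for ADGRF1 and 1.02 to 3.34 for IRX6, lowest with averaged probes and highest with the processed signal. With the cow as a replicate block the values were 4.78 (SE 0.32), 3.73 (SE 0.19) and 1.72 (SE 0.24), with adjusted p of 1.07e-08, 6e-10 and 2.38e-05 in limma, and pairing changed no call. The brightest gland probe of ADGRF1 was well above background on 4 of 12 liver arrays, which limits how large its difference can be read. Its other probe, well above background on 12 of 12, differed by 0.40 with both tissues normalized together. By itself that probe was not recomputed under the alternatives. With each tissue normalized on its own, its mean was 6.64 over the gland arrays and 6.75 over the liver arrays, so that its direction depends on the normalization.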
